A study of Saccharomyces cerevisiae with 16 samples.

Results

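The genes described here are 46 genes of amino acid synthesis and GCN4, taken by their systematic identifiers from 4 deposited tables of RNA sequencing in the budding yeast Saccharomyces cerevisiae. All 47 were listed in every table, among 6258 to 6834 features per table and 6885 features over all tables. In the labels, 16 samples form 8 groups of 2, and each table sets a pair of groups against each other: 3MBPP1 against DMSO in hrr25as cells, 3MBPP1 against DMSO in WT cells, CMK against DMSO in hrr25is cells, and CMK against DMSO in WT cells. Every strain was his3Δ leu2Δ ura3Δ and lacked the chromosomal HRR25 gene (replaced by kanMX4), which encodes a casein kinase 1. HRR25 was supplied on a plasmid: hrr25as carried the I82G form on pRS315 with LEU2, hrr25is carried I82G together with I23C on pRS315, and WT carried unmodified HRR25 on pRS316 with URA3. 3MBPP1 is an inhibitor built to fit kinases with an enlarged ATP pocket, and the labels do not expand CMK. Cells in YPD, a rich medium that supplies amino acids, were grown at 30°C until an OD600 near 0.3 and were treated for 1 hour. The labels do not say whether the 2 samples of a group were separate cultures. The p-values then cover only the spread between them, which may be technical.

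The tables name their groups only as condition A and condition B, with no word on which of them is DMSO. Every fold change below is condition B over condition A, and the direction of the inhibitor rests on that order. The read counts of the 2 libraries behind each condition mean were recovered from the means, as described with the processing. Within a condition the libraries are called deeper and shallower, because they carry no replicate number. Levels are read counts divided by the library's size factor, called normalised reads. Depth was 4275991 to 6592340 reads per library for 3MBPP1 in hrr25as, 10505164 to 13998631 for 3MBPP1 in WT, 16815301 to 34122412 for CMK in hrr25is and 9568820 to 34122412 for CMK in WT.

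HRR25 and the plasmid markers were read per library as a check of the labels, in reads per 1000000 counted reads (RPM). HRR25 had 123 to 166 RPM in hrr25as, 84.1 to 144 in hrr25is, 117 to 166 in WT with 3MBPP1 and 691 to 864 in WT with CMK. The deeper condition B library of CMK in hrr25is held the same count as that of CMK in WT for 6760 of 6760 features. It was left out of the hrr25is range just given, since URA3 stood at 1629 RPM and LEU2 at 0.44 RPM in it. The other hrr25is libraries had 2.48 to 5.23 RPM of URA3 and 75.4 to 85.8 RPM of LEU2, against 1541 to 1842 RPM and 0.132 to 1.67 RPM in WT of the CMK table. The library present in both CMK tables therefore goes against its label in the hrr25is table, and each result of that table is given with and without it. In the 3MBPP1 libraries of WT, LYS2 at 45.6 to 51.2 RPM and MET17 at 271 to 459 RPM were well above the 1.36 RPM that neither gene passed in the CMK libraries, and neither was listed for hrr25as. These WT libraries also held 38.6 to 54.4 RPM of LEU2, a gene that the labelled genotype lacks, and 91.0 to 120 RPM of URA3. They thus go against the labelled genotype in LEU2, and are called WT as labelled. LEU2 had 71.5 to 99.4 RPM in hrr25as, where the plasmid carries it. HIS3 reads were present in every library, at 15.5 to 41.6 RPM over all tables, although every strain is labelled his3Δ. The source of these HIS3 reads was not tested.

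Gcn4 is the yeast transcription activator of the general amino acid control. It binds upstream of genes for the synthesis of most amino acids and raises their transcription when amino acids are scarce. Its own level is set mainly at translation: upstream open reading frames in the GCN4 transcript keep the protein low in fed cells, and phosphorylation of the initiation factor eIF2 by the kinase Gcn2 relieves this. The level of GCN4 RNA is therefore not a measure of Gcn4 protein, which was not measured here. Many of these genes have a further regulator of their own pathway, such as Leu3 for genes of branched-chain synthesis, Lys14 for lysine genes or the ArgR and Mcm1 factors for arginine genes.

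The textbook Gcn4 binding site reads TGACTCA. Its core TGACTC and the full site, which contains the core, were searched on both strands of the reference genome in a window from 250 bases before to 50 bases after each annotated coding start. The core occurred in the windows of 26 of the 47 genes (55.3%) and in 479 of 6001 windows of all genes (7.98%). The full site occurred in 20 of the 47 (42.6%) and in 164 of 6001 (2.73%). The stretches around the full site are given for the 5 genes that hold it and had lower condition B values past the threshold in hrr25as, on the gene's strand of build R64 with the core in capitals. They begin with HIS4 (chrIII:68512-68547, minus strand, core 199 bases before the start), then ILV3 (chrX:466323-466358, minus strand, 135 bases), ILV5 (chrXII:839373-839408, minus strand, 140 bases), BAT1 (chrVIII:517346-517381, plus strand, 171 bases) and ARO1 (chrIV:704246-704281, plus strand, 223 bases).
HIS4: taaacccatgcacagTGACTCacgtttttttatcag
ILV3: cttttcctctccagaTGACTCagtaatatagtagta
ILV5: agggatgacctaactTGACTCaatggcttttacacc
BAT1: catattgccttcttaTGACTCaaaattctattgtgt
ARO1: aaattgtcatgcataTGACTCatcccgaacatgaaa
A match is a description of letters and not a site in use. The core was not in the windows of the other 6 genes called lower in hrr25as, GLN1, ARO4, ILV2, LEU1, HOM3 and LYS20.

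In hrr25as cells of the 3MBPP1 table, 11 of the 47 genes were lower in condition B past the authors' threshold and 0 were higher. In the authors' deposited table, an adjusted p under 0.05 was met by 3.12% of all features in the lower direction and by 1.2% in the higher. The 11 genes were GLN1, HIS4, ILV3, ILV5, ILV2, ARO4, LEU1, HOM3, LYS20, BAT1 and ARO1, with log2 fold changes between -1.99 and -0.96 in the authors' deposited table. The median over all 47 was -0.80, against 0.02 over all features of the table. Both condition B libraries lay below both condition A libraries for 31 of the 47 (23.9% of all features), and above them for 1, LYS1 (24.4%). At an unadjusted p under 0.05 in the authors' deposited table, 18 of the 47 were lower (7.51% of all features). In RNA from a whole culture, fewer cells with a transcript and less of it per cell cannot be told apart.

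**Figure D1:**
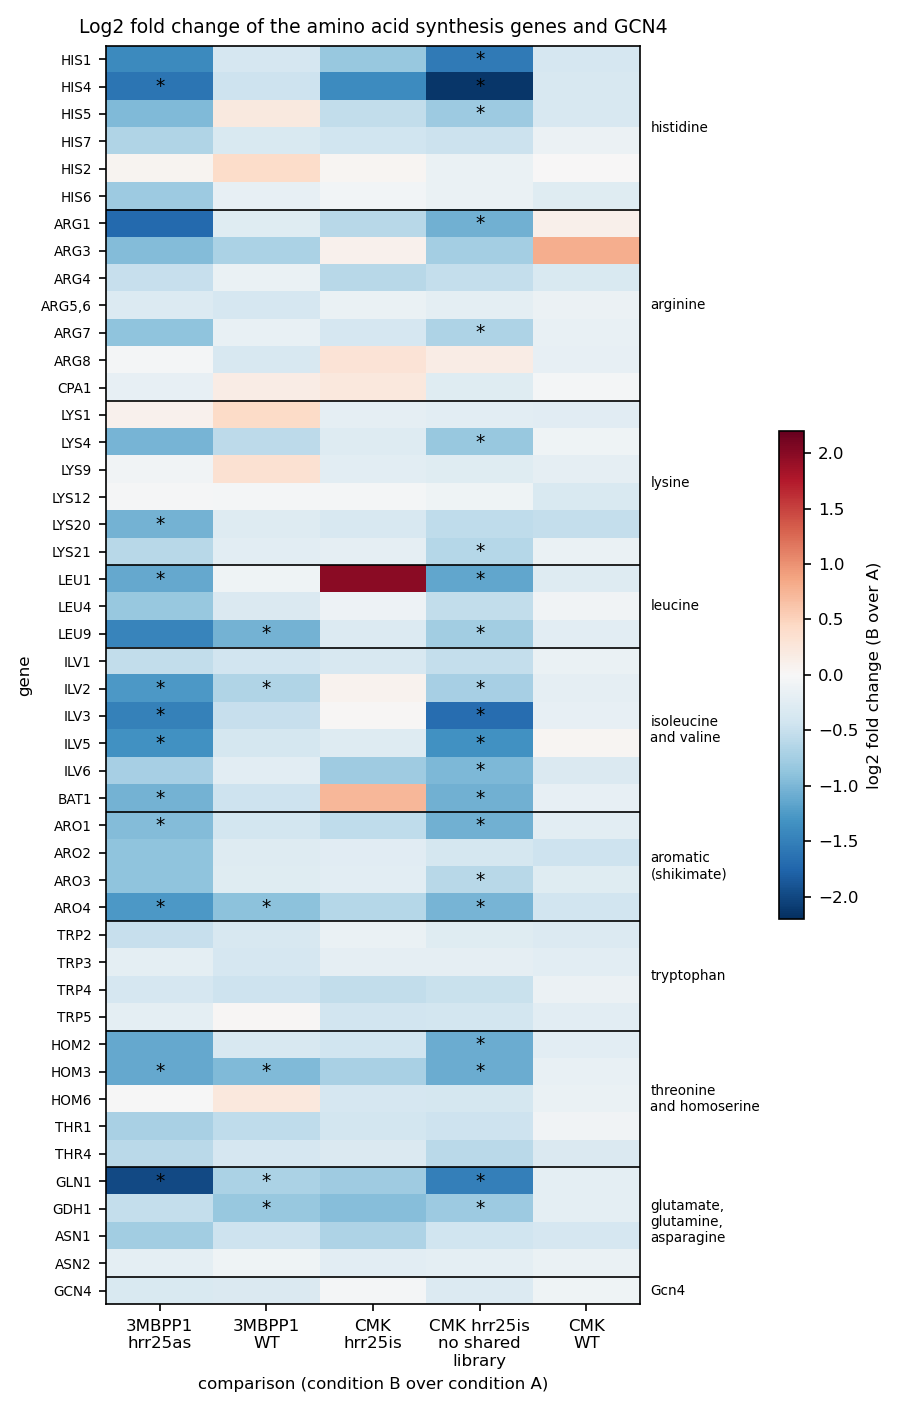
Log2 fold change of 46 of the 47 genes (rows, by pathway) in the authors' deposited tables and, in the fourth column, in a limma fit without the library present in both CMK tables, condition B over condition A, with asterisks at an adjusted p under 0.05. Blue, meaning lower in condition B, fills most of the hrr25as column, and 45 of all 47 values are negative in that table (47.7% of all features).

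Branched-chain synthesis held the most calls in hrr25as. Of the 6 isoleucine and valine genes, 4 were lower, and the median of the 6 was -1.15. ILV2 (YMR108W, chromosome XIII, 484084 to 486147), the catalytic subunit of acetolactate synthase at the head of the shared pathway, had 1810 and 2305 normalised reads in condition B and 4156 and 5699 in condition A. In the authors' deposited table its log2 fold change was -1.26 (adjusted p = 0.0147), and limma gave -1.25 ± 0.24 (SE, adjusted p = 0.0486). ILV5 (YLR355C, chromosome XII, 838066 to 839253), the reductoisomerase of the next step, had 2910 and 3111 in condition B and 7070 and 8105 in condition A. Its deposited fold change was -1.33 in the authors' deposited table (adjusted p = 0.000868), with an SE of 0.19 by limma. The gap between the conditions was wide beside the gap within them for this gene. ILV3 (YJR016C, chromosome X, 464451 to 466208), the dihydroxyacid dehydratase that follows, had 896 and 971 normalised reads in condition B and 2245 and 2992 in condition A, or 64.4% less, with a log2 fold change of -1.49 in the authors' deposited table (adjusted p = 0.000536). BAT1 (YHR208W, chromosome VIII, 517532 to 518713), the mitochondrial branched-chain aminotransferase that ends the pathway, had 655 and 751 in condition B and 1250 and 1640 in condition A. It passed in the authors' deposited table (-1.04, adjusted p = 0.0326) and not by limma (adjusted p = 0.0600). ILV6, the regulatory subunit of acetolactate synthase, and ILV1, threonine deaminase, had deposited values of -0.72 and -0.54 in the authors' deposited table and did not pass.

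In the leucine branch, LEU1 (YGL009C, chromosome VII, 476313 to 478652), isopropylmalate isomerase, was the called gene among 3 in hrr25as. It had 731 and 763 normalised reads in condition B and 1457 and 1814 in condition A, a log2 fold change of -1.13 in the authors' deposited table (adjusted p = 0.0135). The libraries of each condition lay close together for this gene. LEU9 and LEU4 are the paralogous isopropylmalate synthases that open the branch, and reads from near-identical stretches of such pairs may be dropped or given to the wrong gene. LEU9 had 445 and 728 in condition B against 1064 and 2142 in condition A, a value of -1.45 in the authors' deposited table that missed the threshold (adjusted p = 0.563). Its condition A libraries differed 2.01-fold from each other.

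Glutamine synthetase, GLN1 (YPR035W, chromosome XVI, 642208 to 643320), which fixes ammonia onto glutamate, had the lowest deposited fold change of the 47 genes in hrr25as. It had 1791 and 785 normalised reads in condition B and 5677 and 4567 in condition A, 74.8% less, with -1.99 in the authors' deposited table (adjusted p = 1.19e-05). The condition B libraries themselves differed 2.28-fold, and limma gave -2.10 ± 0.39 (SE, adjusted p = 0.0458). The other genes of nitrogen assimilation did not pass in the authors' deposited table: GDH1, the NADPH-dependent glutamate dehydrogenase, stood at -0.53, and the asparagine synthetase genes ASN1 and ASN2 at -0.76 and -0.22.

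HIS4 (YCL030C, chromosome III, 65934 to 68333), which encodes an enzyme of several steps of histidine synthesis and is the classic Gcn4 reporter, had 2170 and 3012 normalised reads in condition B of hrr25as and 6354 and 9350 in condition A. Its log2 fold change was -1.60 in the authors' deposited table (adjusted p = 0.0178), or 67.0% less, and -1.59 ± 0.27 by limma (SE, adjusted p = 0.0414). The groups did not overlap. HIS1, the phosphoribosyltransferase of the first step, had 1722 and 2352 in condition B against 4234 and 6490 in condition A, and missed both thresholds, with -1.40 in the authors' deposited table (adjusted p = 0.0981) and a limma adjusted p of 0.0583. HIS5, HIS7 and HIS6 stood at -0.97, -0.66 and -0.80 in the authors' deposited table without passing, and HIS2, histidinol phosphatase, at 0.06. The histidine group thus spanned values from -1.60 to 0.06.

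The aromatic, threonine and lysine pathways held the other called genes of hrr25as. ARO4 (YBR249C, chromosome II, 716882 to 717994), a DAHP synthase that opens the aromatic pathway, had 1301 and 1505 normalised reads in condition B against 2794 and 3930 in condition A (-1.26 in the authors' deposited table, adjusted p = 0.0261). ARO1 (YDR127W, chromosome IV, 704484 to 709250), the enzyme of consecutive shikimate steps, had 2878 and 3084 in condition B against 5449 and 6149 in condition A (-0.96 in the authors' deposited table, adjusted p = 0.0406), and did not pass by limma (adjusted p = 0.0502). HOM3 (YER052C, chromosome V, 256375 to 257958), aspartate kinase, the first step towards threonine, methionine and isoleucine, had 460 and 512 in condition B against 963 and 1159 in condition A (-1.13 in the authors' deposited table, adjusted p = 0.0152). For each of these genes the conditions were apart by more than the libraries within them. LYS20 (YDL182W, chromosome IV, 133437 to 134723), a homocitrate synthase that opens lysine synthesis, had 632 and 478 in condition B against 1105 and 1189 in condition A (-1.05 in the authors' deposited table, adjusted p = 0.0356), and it did not pass by limma either (adjusted p = 0.0534). Its paralogue LYS21, under the same caution about reads from near-identical stretches, had -0.62 in the authors' deposited table (adjusted p = 0.474).

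Of the later steps of lysine synthesis in hrr25as, LYS4, homoaconitase, stood at -1.02 in the authors' deposited table without passing (adjusted p = 0.259). LYS12, LYS9 and LYS1 stood at -0.03, -0.07 and 0.09 in the authors' deposited table. None of the 4 tryptophan genes passed (3.12% of all features lower), with values between -0.51 and -0.21 in the authors' deposited table. HOM6, homoserine dehydrogenase, had 3888 and 4345 normalised reads in condition B and 3808 and 4437 in condition A, and its groups overlapped. Both aromatic genes that missed the threshold, ARO2 and ARO3, had all condition B values below all condition A values.

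Arginine synthesis had 0 called genes of 8 in hrr25as by the authors' test and by limma (3.12% and 2.36% of all features lower). It had 0 with an unadjusted p under 0.05 in the authors' deposited table (7.51% of all features lower), although its values reached -1.71. For 8 genes, a count of 0 is near these shares. ARG1, argininosuccinate synthetase, had 138 and 315 normalised reads in condition B and 370 and 1114 in condition A. For this gene the shallower library was the higher one in each condition, and the libraries differed 2.28-fold in condition B and 3.01-fold in condition A. The same held for ARG4, argininosuccinate lyase, at 850 and 2268 against 1322 and 3112, and for HOM2, aspartate semialdehyde dehydrogenase, at 421 and 2614 against 762 and 5898. With that spread, a difference of the size of HOM2's (-1.13 in the authors' deposited table, adjusted p = 1) was not detectable with 2 libraries per condition. Whether depth or another property of the shallower libraries has a part in it was not tested.

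GCN4 (YEL009C, chromosome V, 138918 to 139763) itself had 2103 and 2460 normalised reads in condition B of hrr25as and 2636 and 3128 in condition A. The groups did not overlap, but the difference was small and missed the threshold, at -0.34 in the authors' deposited table (adjusted p = 0.942) and -0.34 ± 0.19 by limma (SE, adjusted p = 0.430).

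The authors' size factors hold the median of all features near 0. When libraries were instead scaled to their total counted reads, that median moved to 0.33 in hrr25as and the median of the 47 genes was -0.50, or -0.83 relative to all features. Under that scaling limma called 0 of the 47 genes (1.12% of all features in either direction), and 17 were lower at an unadjusted p under 0.05 (5.05% of all features). With the size factors limma called 8 lower and 0 higher (2.36% and 1.04% of all features). Leaving out libraries under the size factors, the median of the 47 genes was -0.50 without the shallower condition A library and -1.02 without the deeper one. It was -0.64 without the deeper condition B library and -1.01 without the shallower one. Each of these leaves 1 library in a condition, so that limma's calls in such a fit hold no spread there. The 47 genes together took 1.38% and 1.66% of counted reads in condition B and 1.92% and 2.39% in condition A. The 95% Wilson intervals reached at most 0.0145 percentage points to either side and cover counting error only. In WT with 3MBPP1 the shares overlapped, at 1.01% and 0.71% in condition B against 1.07% and 0.84% in condition A. For CMK in hrr25is they were 1.48% (the library present in both tables) and 1.05% against 1.33% and 1.29%. For CMK in WT they were 1.476% and 1.360% against 1.483% and 1.574%.

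**Figure D2:**
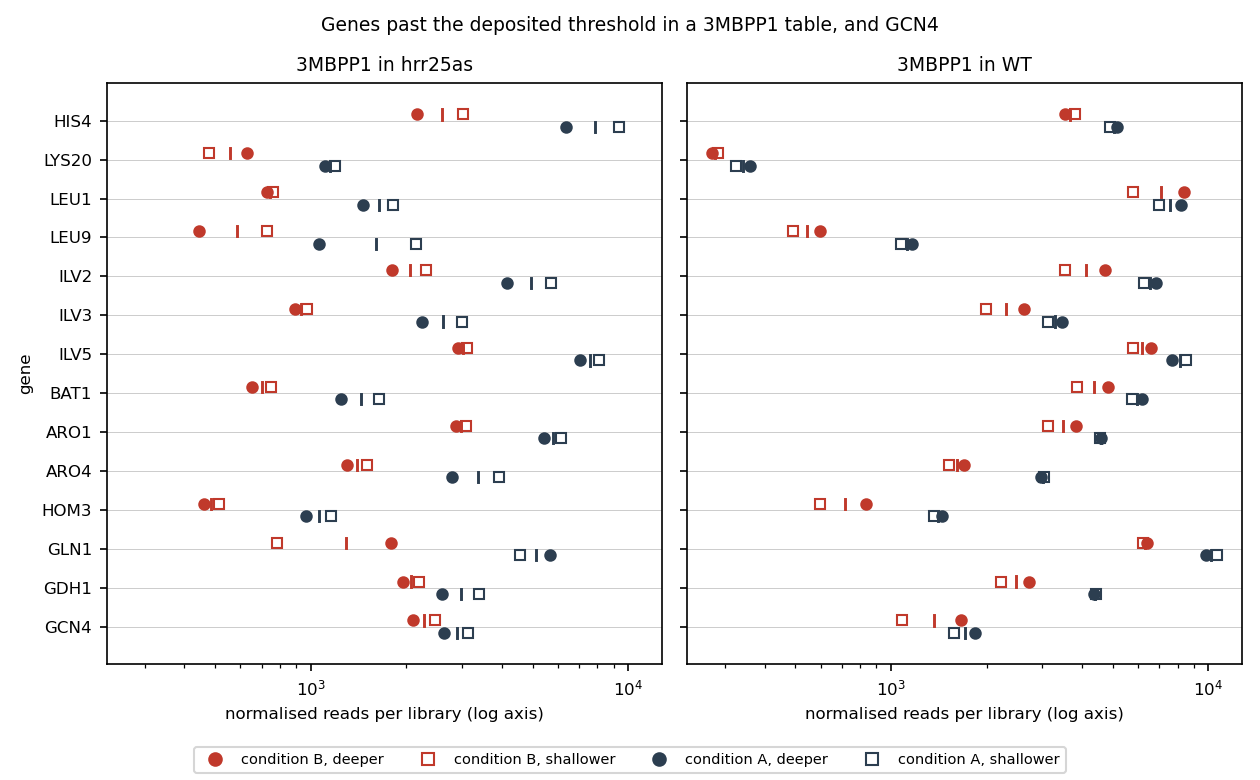
Normalised reads per library (log axis) of the 13 genes past the deposited threshold in either 3MBPP1 table and of GCN4, condition B above condition A in each row, with ticks at the means, for hrr25as (left) and WT (right). In hrr25as the condition B points of HIS4 (2170 and 3012) lie left of its condition A points (6354 and 9350), and in WT they lie at 3544 and 3807 against 5159 and 4896.

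In WT cells of the 3MBPP1 table, 6 of the 47 genes were lower in condition B past the authors' threshold and 0 were higher. An adjusted p under 0.05 was met in the authors' deposited table by 4.59% of all features in the lower direction and by 2.78% in the higher. The 6 were LEU9, HOM3, ARO4, GDH1, GLN1 and ILV2, with log2 fold changes between -1.04 and -0.67 in the authors' deposited table. The median over the 47 genes was -0.35, against -0.0023 over all features. Both condition B libraries lay below both condition A libraries for 32 of the 47 (26.7% of all features) and above them for 4, HIS2, HIS5, LYS9 and HOM6 (27.0%). In the authors' deposited table, 40 of the 47 values were negative (50.2% of all features), and 17 were lower at an unadjusted p under 0.05 (8.11%).

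LEU9 (YOR108W, chromosome XV, 523027 to 524841) had 597 and 491 normalised reads in condition B of WT and 1167 and 1079 in condition A, 51.5% less, with -1.04 in the authors' deposited table (adjusted p = 7.23e-06) and -1.05 ± 0.14 by limma (SE, adjusted p = 0.00612). HOM3 had 835 and 596 in condition B against 1448 and 1365 in condition A (-0.97 in the authors' deposited table, adjusted p = 3.49e-05). ARO4 had 1705 and 1527 in condition B against 2978 and 3036 in condition A (-0.90 in the authors' deposited table, adjusted p = 4.66e-05). All 3 stood clearly apart between the conditions. GDH1 (YOR375C, chromosome XV, 1041678 to 1043042) had 2731 and 2223 in condition B and 4364 and 4422 in condition A (-0.83 in the authors' deposited table, adjusted p = 0.000236). GLN1 had 6394 and 6246 in condition B and 9809 and 10629 in condition A (-0.69 in the authors' deposited table, adjusted p = 0.00230). ILV2 had 4717 and 3526 in condition B and 6859 and 6247 in condition A, and passed in the authors' deposited table (-0.67, adjusted p = 0.00979) but not by limma (adjusted p = 0.0591).

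Limma called the other 5 lower in WT and 0 higher (5.03% and 3.38% of all features). With libraries scaled to total reads, 4 were lower and 3 higher by limma at an unadjusted p under 0.05 (4.24% of all features lower). Limma's count of calls was 1, LEU9, under that scaling (5.34% of all features in either direction). It was 2 without the deeper condition A library (3.01% of all features in either direction), 1 without the shallower one (1.93%) and 16 without the deeper condition B library (10.0%). Without the shallower condition B library 6 were lower and 1 higher (8.85%). GCN4 had 1658 and 1083 normalised reads in condition B and 1844 and 1578 in condition A, with overlapping groups and -0.32 in the authors' deposited table (adjusted p = 0.790). By limma GCN4 was at -0.35 (adjusted p = 0.363), and at -0.66 (adjusted p = 0.0278) without the deeper condition B library and -0.04 (adjusted p = 0.894) without the shallower one. In the authors' deposited table, HIS4 was at -0.45 (adjusted p = 0.0905), ILV3 at -0.51 (adjusted p = 0.0972) and LYS4 at -0.57 (adjusted p = 0.0637). The few values above 0 in the authors' deposited table included LYS1 at 0.42, HIS2 at 0.41, LYS9 at 0.34 and HIS5 at 0.21, and none of these passed.

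ARO4, GLN1, HOM3 and ILV2 were called in both 3MBPP1 tables, 36.4% of the 11 in hrr25as and 66.7% of the 6 in WT. None of the 6 genes called in WT held the TGACTC core in its window. In hrr25as the called genes were 5 of the 26 with the core and 6 of the 21 without it, and the medians of these groups in the authors' deposited table were -0.71 and -0.95. In WT the called genes were 0 of the 26 with the core and 6 of the 21 without it, with medians of -0.36 and -0.29. Calls were the more frequent without the core in both strains, while the order of the medians was not the same in the 2 strains. Neither difference was tested. The 4 genes called in both tables all lack the core, so the counts of the strains are not separate. Over all features, 3.12% were called lower in hrr25as and 4.59% in WT. Only exact matches inside the windows were searched. A gene without the core may therefore hold a site of other letters or farther upstream.

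Whether the response of hrr25as differed from that of WT was tested as an interaction in limma, with condition A assumed to be 1 treatment throughout. The difference, hrr25as minus WT, was negative for 40 of the 47 genes (51.7% of all features), with a median of -0.39 against -0.02 over all features. None of the 47 passed an adjusted p of 0.05, as did 0.0961% of all features (0.048% with a negative difference), while 10 were negative and 0 positive at an unadjusted p under 0.05 (5.36% of all features negative). The smallest adjusted p of the 47 was that of HIS5, histidinol-phosphate aminotransferase. HIS5 (YIL116W, chromosome IX, 142928 to 144085) had 551 and 614 normalised reads in condition B of hrr25as and 933 and 1352 in condition A, while in WT it had 1291 and 1330 in condition B and 1141 and 1129 in condition A. The direction was opposite in the strains, and the difference was -1.16 ± 0.26 (SE, limma adjusted p = 0.153). ILV5, HIS4 and ILV3 had differences of -0.94 ± 0.24, -1.14 ± 0.33 and -0.95 ± 0.28 (SE, limma adjusted p = 0.208, 0.249 and 0.262). GLN1 had the largest difference in size, -1.41 ± 0.47 (SE, limma adjusted p = 0.307). A response of these genes particular to hrr25as was therefore not shown by this test. The median moved to -0.63 (44 negative) without the deeper condition A library of hrr25as, -0.15 (31 negative) without the shallower one and -0.24 (30 negative) without the deeper condition B library of hrr25as. The strains of the 3MBPP1 tables also differed in LYS2 and MET17, and the WT libraries held LEU2 RNA against their labelled genotype, as given above. The part of these in the differences was not tested.

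**Figure D3:**
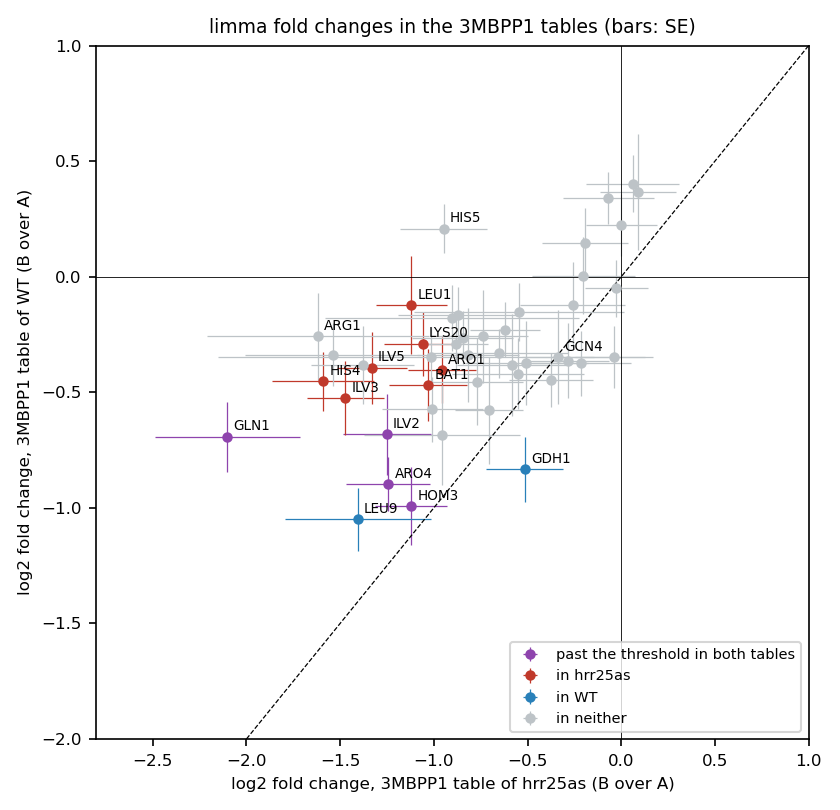
Log2 fold change by limma, condition B over condition A, of the 47 genes in hrr25as (horizontal axis) and in WT (vertical axis), with SE bars, coloured by the deposited call and with a dashed line of equal change. 40 of 47 points lie on the side of the line where the value in hrr25as is the lower, and GLN1 lies farthest from it at -2.10 and -0.69.

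In the CMK table of hrr25is as deposited, 0 of the 47 genes passed the authors' threshold, in a table where 0.0296% of all features passed in the lower direction and 0.0148% in the higher. At an unadjusted p under 0.05 in the authors' deposited table, 7 were lower (2.07% of all features) and 1 higher, and limma called 0. Of the 47 values in the authors' deposited table, 39 were negative (48.0% of all features). The median over the 47 was -0.31 in the authors' deposited table, against 0.01 over all features. Both condition B libraries lay below both condition A libraries for 23 genes (17.7% of all features) and above them for 1, ARG8 (17.4%).

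The genes with the smallest deposited p were GDH1, HIS4 and ILV6. GDH1 had 7205 and 8653 normalised reads in condition B of hrr25is, where the first is the library also present in the WT table, and 16712 and 13635 in condition A (-0.94 in the authors' deposited table, adjusted p = 0.414). Without that library, limma gave GDH1 -0.80 ± 0.28 (SE, adjusted p = 0.0374). HIS4 had 5503 and 2300 in condition B and 11005 and 9384 in condition A (-1.39 in the authors' deposited table, adjusted p = 0.778). ILV6 had 4642 and 3503 in condition B and 7438 and 6494 in condition A (-0.77 in the authors' deposited table, adjusted p = 1), and -0.99 ± 0.24 by limma without that library (SE, adjusted p = 0.000730). The conditions did not overlap for these genes, but the condition B libraries of HIS4 lay 2.39-fold apart. GCN4 had 8524 and 6057 in condition B and 8545 and 6527 in condition A, so that its groups overlapped (-0.05 in the authors' deposited table, adjusted p = 1).

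LEU1 had the widest gap of the 47 genes between the condition B libraries of hrr25is, 16.5-fold. It had 22706 normalised reads in the library present in both tables and 1376 in the other condition B library, against 3085 and 2975 in condition A, which gave 1.99 in the authors' deposited table (adjusted p = 1). BAT1 had 12430 in that library and 2060 in the other, against 5138 and 3547 in condition A. ILV3 had 10506 and 1901 in condition B against 6764 and 5495 in condition A. For all 3 the library also present in the WT table lay above both condition A libraries and the other library lay below them.

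Without that library, limma called 22 of the 47 genes lower and 0 higher (7.53% and 5.25% of all features). The median over the 47 was -0.59, against 0.00079 over all features, and 46 of the 47 values were negative (49.9%). The lone condition B library lay below both condition A libraries for 45 of the 47 (39.6% of all features) and above them for 1, ARG8 (39.9%). This fit has 1 library in condition B, which is assumed to vary like the condition A libraries. Its p-values rest on the spread within condition A, which limma moderates over all features of the table. They hold no spread within condition B, and are not a measure of the gene's own libraries alone. The largest negative values were those of HIS4 (-2.14 ± 0.24, SE), ILV3 (-1.68 ± 0.23), HIS1 (-1.56 ± 0.24) and GLN1 (-1.50 ± 0.27), and ILV5 was at -1.33 ± 0.30. LEU1 was at -1.14 ± 0.22 (SE) in this fit, and BAT1 at -1.05 ± 0.22.

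By pathway, limma's calls without that library covered 5 of 6 isoleucine and valine genes, 3 of 4 aromatic genes, 2 of 3 leucine genes, 3 of 6 histidine genes and 3 of 8 arginine genes. They also covered 2 of 6 lysine genes, 2 of 5 genes of threonine and homoserine and 2 of 4 of the glutamate, glutamine and asparagine group. None of the 4 tryptophan genes was called, and these had values between -0.50 and -0.20. GCN4 was at -0.30 ± 0.25 (SE) and not called (adjusted p = 0.485).

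**Figure D4:**
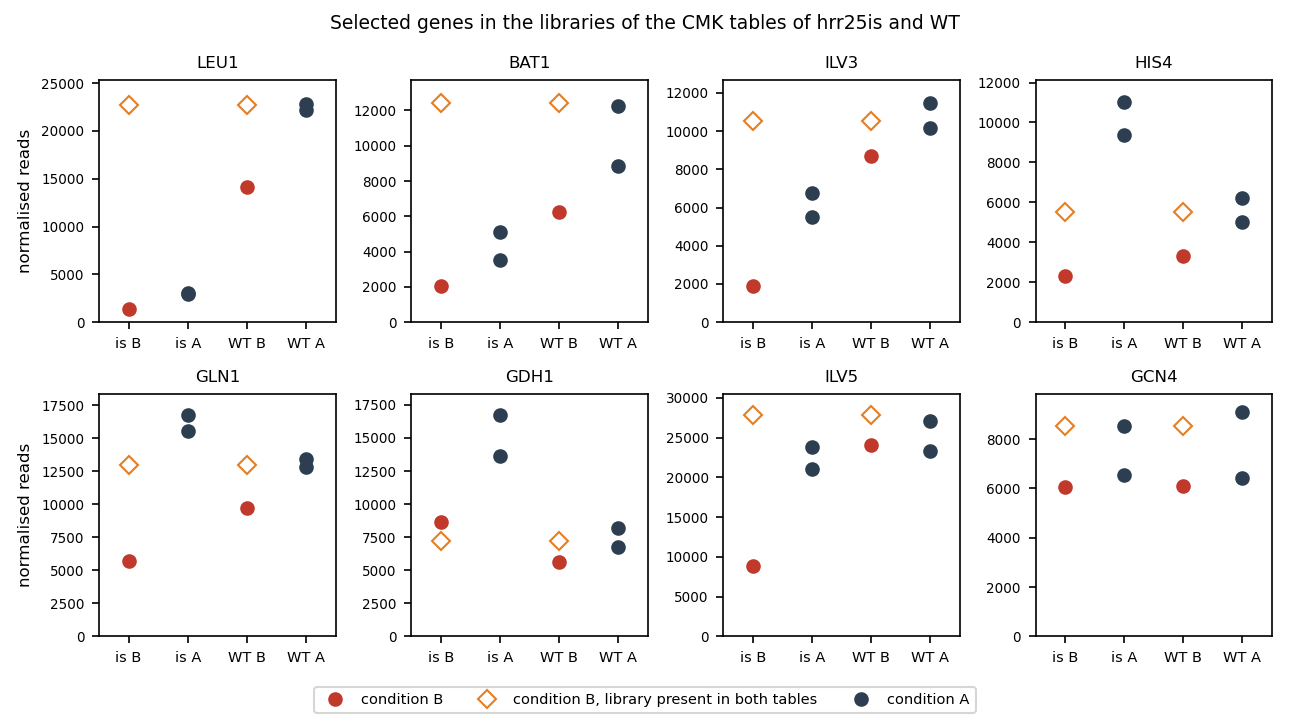
Normalised reads per library of 8 of the genes in the CMK tables, for condition B and condition A of hrr25is (is) and of WT, with the library present in both tables as open diamonds. For LEU1 that library (22706) lies with the WT libraries (14090 to 22810), while the other hrr25is libraries lie between 1376 and 3085.

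In the CMK table of WT, 0 of the 47 genes passed by the authors' test or by limma, where 0.0% of all features passed in the lower direction and 0.133% in the higher in the authors' deposited table, and 0 of the 47 were lower or higher at an unadjusted p under 0.05 (0.178% of all features lower). The median over the 47 was -0.20 in the authors' deposited table, against 0.01 over all features, and 43 of the 47 values were negative (48.1%). Both condition B libraries lay below both condition A libraries for 3 genes, HIS6, HIS7 and ARG4 (12.8% of all features), and above them for ARG3 (12.6%). ARO2, chorismate synthase, had 5757 and 3429 normalised reads in condition B and 5560 and 7073 in condition A (-0.46 in the authors' deposited table, adjusted p = 1). ARG4 had 1874 and 1452 in condition B and 2006 and 2195 in condition A (-0.34 in the authors' deposited table, adjusted p = 1). LYS12, homoisocitrate dehydrogenase, had 2618 and 1888 in condition B and 2599 and 3074 in condition A (-0.33 in the authors' deposited table, adjusted p = 1). These were the 3 with the smallest deposited p, and for ARO2 and LYS12 the groups overlapped. GCN4 had 8524 and 6097 in condition B and 6416 and 9112 in condition A (-0.09 in the authors' deposited table, adjusted p = 1).

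The difference of the CMK responses, hrr25is minus WT, was tested in limma with the library present in both tables used once, on the WT side. It was negative for 39 of the 47 genes (53.1% of all features), with a median of -0.38 against -0.04 over all features. These values rested on single libraries: without the library present in both tables the median was 0.11 and 21 were negative. It was -0.0018 (25 negative) without the deeper condition A library of WT and -0.030 (25 negative) without that of hrr25is. With that shared library used on both sides the median was -0.17 (31 negative), and with total counted reads -0.09 (28 negative). None passed an adjusted p of 0.05, as did 0.0% of all features, and 6 were negative and 0 positive at an unadjusted p under 0.05 (3.7% of all features negative). ILV3 had the smallest adjusted p of the 47, with a difference of -1.50 ± 0.34 (SE, limma adjusted p = 0.482), and HIS4 had -1.75 ± 0.44 (SE, limma adjusted p = 0.602).

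The CMK tables share 1 normalisation, so their condition A libraries were also set against each other, a comparison added after the data had been seen. LEU1 had 3085 and 2975 normalised reads in hrr25is and 22146 and 22810 in WT, 7.42-fold lower in hrr25is, with a difference of -2.89 ± 0.26 (SE, limma adjusted p = 0.00990). It was the 1 gene of the 47 that passed, in a comparison where 0.118% of all features did, 0.074% in the lower direction. The call was lost in each of the 6 fits that left out 1 library, while the difference stayed between -2.92 and -2.86. The strains also differed in the LEU2 marker, which encodes the enzyme after LEU1 in leucine synthesis and lies on the plasmid of hrr25is, as given above. The part of that in the difference was not tested. BAT1 had 5138 and 3547 in hrr25is and 8852 and 12230 in WT (-1.28 ± 0.37, SE, limma adjusted p = 0.464), and GDH1 had 16712 and 13635 in hrr25is and 6758 and 8221 in WT (1.02 ± 0.24, SE, limma adjusted p = 0.296). Of the 47 genes, 8 were lower in both hrr25is libraries than in both WT libraries (20.2% of all features) and 15 were higher (24.2%).

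Levels of different genes were compared per kilobase of coding length within each table. In hrr25as, ASN1 had the highest level over the 4 libraries, 5638 normalised reads per kilobase, and ARG3, ornithine carbamoyltransferase, the lowest, 46.2. In the 3MBPP1 table of WT, GLN1 was highest at 7430 and ARG3 lowest at 182. In the CMK table of WT, ILV5 was highest at 21509 and ARG3 lowest at 85.2. By the order of levels within a table, LEU1 ranked 35 of 47 in hrr25as and 7 in the 3MBPP1 table of WT, and GCN4 ranked 6 and 14 there.

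Further genes of amino acid metabolism were read from lists of pathway neighbours and regulators. Among 26 other amino acid synthesis genes, 1 was lower and 1 higher in hrr25as (3.12% and 1.2% of all features). BAT2, the cytosolic branched-chain aminotransferase, had 1633 and 1863 normalised reads in condition B and 3354 and 3421 in condition A (-0.95 in the authors' deposited table, adjusted p = 0.0352). SER3, a phosphoglycerate dehydrogenase of serine synthesis, had 620 and 817 in condition B and 284 and 387 in condition A (1.10 in the authors' deposited table, adjusted p = 0.0162). SER3 did not pass by limma (adjusted p = 0.0762). The median of that list was -0.45 in hrr25as and -0.19 in the 3MBPP1 table of WT, where none of the 26 passed.

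Of 15 regulators of Gcn4 translation and turnover and 10 transcription regulators of single pathways, none passed in any of the 4 deposited tables. Of 9 amino acid breakdown genes, 3 were lower in hrr25as (3.12% of all features). They were CHA1, a serine and threonine deaminase induced by these amino acids, ASP1, a cytosolic asparaginase, and GCV2, a subunit of the glycine cleavage system. CHA1 had 781 and 542 normalised reads in condition B and 2417 and 2219 in condition A (-1.81 in the authors' deposited table, adjusted p = 2.86e-06), and ASP1 and GCV2 were at -1.03 and -0.94 in the authors' deposited table. ASP1 and GCV2 did not pass by limma there (adjusted p = 0.0502 and 0.0600). In the 3MBPP1 table of WT, the authors' deposited table had ASP1 lower, at -0.78, while GCV1, another glycine cleavage gene, and PUT2, of proline breakdown, were higher, at 1.14 and 0.61. Of 12 amino acid permeases, none passed in hrr25as. In WT the general permease GAP1 was higher, at 0.52 in the authors' deposited table, and BAP3 and MUP1, permeases for branched-chain amino acids and methionine, were lower, at -0.52 and -0.69. GAP1 did not pass by limma (adjusted p = 0.0797), while BAP3 and MUP1 did. No gene of these lists passed in either CMK table as deposited. Without the library present in both CMK tables, limma's fit of hrr25is has 1 library in condition B. Its calls hold no spread there, so those among these lists are not given.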

How the data were processed

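Total RNA was depleted of ribosomal RNA and read as 100 bp single ends, per the labels' protocols. The submitters' processing notes name CASAVA 1.8.2, STAR 2.3.0, HTSeq 0.6.0 and build sacCer3, with no strand setting for the counting. Gene positions are on R64, the reference assembly under that build name, and span coding starts to ends. The authors deposited mean normalised read counts over each table and per condition, the ratio (fold change) of condition B over condition A, its log2, and p-values with adjusted p-values, per the file headers. These fold changes and adjusted p-values (threshold 0.05 over the table) are the main result. Whole reads per library were solved from the condition means, 100% of them with 1 solution, and checked on simulated data. limma 3.58.1 with trend (R 4.3.3) on log2 of normalised reads plus 1 gave SE, differences and alternatives, with Benjamini-Hochberg adjustment over all features. Identifiers matched the R64 annotation for 5761 to 5973 features per table. The 47 genes and the further lists were chosen with earlier results of these data known. Full values are given for GCN4, for called members (at most 8 per table by size of fold change, with others in brief) and, where none was called, for the 3 with the smallest p; LEU1 in hrr25is, and the genes set beside it in the CMK tables, were chosen after their values were seen. Results for 1 gene of the 47 are not reported by name here. The treatment protocol names CMK and DMSO, while titles name 3MBPP1 too; groups follow the titles.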

Additional observations from a re-analysis of the deposited data

How the results depend on the processing

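Alternatives were pseudocounts of 0.5 and 5, a filter at a mean of 50 normalised reads, total counted reads in place of size factors, a looser threshold of 0.1, limma in place of the deposited test, the library of both CMK tables left out or used on both sides, and leaving out each library. Of the comparisons of group results, 75 were kept and 22 moved. A median was kept when it moved by less than the spread of the medians between single libraries of the conditions. A count was kept when it was equal or near in ratio, so that a count that stayed at 0 was kept too. Of the comparisons for single genes, 86 kept call and direction, 23 lost and 9 gained the limma call, and 7 changed sign. With total reads, limma's count of called genes went to 0 in hrr25as (1.12% of all features) and 1 in the 3MBPP1 table of WT (5.34%). With size factors these counts were 8 (3.4%) and 5 (8.41%). The median in that WT table went to -0.12 and in CMK hrr25is to -0.0025 with total reads (-0.33 relative to all features in both tables). GCN4 turned to 0.26 in CMK hrr25is and 0.032 in CMK WT under that scaling. Without the library present in both CMK tables, the count for CMK hrr25is was 22 (0 with it) and LEU1 turned to -1.14. The condition A comparison of hrr25is and WT gave 2 calls with total reads (1 with size factors).

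Leaving out each library in turn, the median log2 fold change ranged from -1.02 to -0.50 in hrr25as, -0.44 to -0.25 in WT with 3MBPP1, -0.51 to 0.01 in CMK WT, and in CMK hrr25is -0.44 to -0.13 over 3 libraries and -0.60 without the library present in both tables. The limma counts ranged from 4 to 28 in hrr25as, 1 to 16 in WT with 3MBPP1, 0 to 3 in CMK WT and, over the same 3 libraries, 0 to 4 in CMK hrr25is; CMK hrr25is had 1 without the shallower condition A library and 4 without the shallower condition B library, and CMK WT 3 without the library present in both tables. The count for the difference between the 3MBPP1 tables ranged from 0 to 1 (without the deeper condition B library of hrr25as), for the CMK difference from 0 to 0, and for the condition A comparison from 0 to 0. Each of these fits leaves 1 library in a condition, so its count holds no spread there and is not read as genes gaining calls. In CMK hrr25is without the shallower condition B library, the calls went in both directions. In CMK WT without the library present in both tables, the share called was lower for the 47 genes than for all features. It was higher in the CMK hrr25is fits without the shallower library of either condition. GCN4 ranged from -0.25 to 0.19 in CMK hrr25is (-0.30 without the library of both tables) and from -0.34 to 0.17 in CMK WT. Without the shallower condition A library of hrr25as, ARO4, ILV2, LEU1 and HOM3 lost limma's call at -0.997, -1.02, -0.96 and -0.99 (-1.24, -1.25, -1.12 and -1.12 with it). In WT HOM3 (-1.04 to -0.95), GDH1 (-0.84 to -0.82) and GLN1 (-0.75 to -0.63) lost it without either condition A library and ARO4 (-0.88) without the shallower one. The causes were not tested. No paired analysis was possible because the recovered libraries carry no replicate number. With 2 libraries per condition, only differences well above the spread within a condition could pass.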
